A study of Mus musculus with 6 samples.

Results

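The 9 genes described here handle retinoic acid in mouse ovarian surface epithelial (MOSE) cells: Stra6, Rdh10, Dhrs3, Aldh1a1, Aldh1a2, Aldh1a3, Crabp1, Cyp26b1 and Rara. They were taken by symbol from the 25006 gene identifiers in the count tables, and all 9 were found. Their differences between the cell lines were known when they were chosen, so those differences are given as a description, and the calls that a fit across all genes gave them are used to support nothing. Total RNA was sequenced from the stable line MOSE-PAX8, which overexpresses PAX8, a paired-box transcription factor, and from its reference line MOSE-NEO, with 3 libraries of each. Both lines were grown in G418 at 0.05 mg/mL, and the labels name a single cell line per group. They give neither the promoter that drives PAX8 nor whether a line is 1 clone.

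Retinoic acid is a small hormone-like molecule made from vitamin A (retinol) inside the cell. Stra6 carries retinol in, retinol dehydrogenases such as Rdh10 oxidise it to retinal, Dhrs3 reduces retinal back to retinol, and the ALDH1A enzymes oxidise retinal irreversibly to retinoic acid. Crabp1 binds the acid in the cytoplasm, Cyp26b1 degrades it, and Rara is a nuclear receptor that binds it and acts on target genes as a partner of the RXR receptors. In the embryo Aldh1a2 makes most of the retinoic acid, and it is known in the adult as a gene of the mesothelium and the ovarian surface.

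The main pattern among these genes was that Aldh1a2 transcripts were all but missing from MOSE-PAX8, that Rdh10 was 4.37-fold higher there, and that Aldh1a1 was by far the most abundant of the 9 per length in both lines. At an adjusted p below 0.05 (edgeR quasi-likelihood test) 3 of the 7 tested members were called, Rdh10 and Rara higher and Aldh1a2 lower in MOSE-PAX8, beside 33.9% of all 12313 tested genes (17.9% higher and 16.1% lower). The libraries of the lines did not overlap for 4 of the 7, 2 higher and 2 lower in MOSE-PAX8, beside 47.6% of all tested genes (25.3% higher and 22.2% lower). Crabp1 and Aldh1a3 had too few reads to be tested. The median log2 fold change of the 7 was 0.28, beside 0.01 over all tested genes. Nothing is read from these counts, since the members were chosen from this comparison. Log2 fold changes are MOSE-PAX8 over MOSE-NEO throughout, and CPM is the read count scaled to the normalised size of the library.

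Library totals ranged from 30621528 to 36367825 counts in MOSE-PAX8 and from 23623762 to 32057173 in MOSE-NEO. The Pax8 gene had 2570, 2973 and 3544 counts in MOSE-PAX8, against 0, 1 and 1 in MOSE-NEO, so the libraries match their labels. A MOSE-PAX8 library (replicate 2) and a MOSE-NEO library (replicate 1) held more lincRNA than the rest, 0.3303% and 0.3169% of counts, against 0.1460% to 0.1953% in the other libraries. The 17 markers of ovarian surface epithelium and mesothelium were abundant as a sum, at 9781 to 11427 CPM in MOSE-PAX8 and 16431 to 18233 CPM in MOSE-NEO, and 9 of the 15 that could be tested were called lower and 2 higher. Krt7, a keratin of simple epithelia, had 1038 CPM in MOSE-PAX8 and 1910 CPM in MOSE-NEO. The keratin Krt8 was close to absent, at 0.317 CPM in MOSE-PAX8 and 0.788 CPM in MOSE-NEO, as were Krt19 (0.405 and 0.278 CPM) and the epithelial cadherin Cdh1 (0.0285 and 0.0106 CPM). In contrast, the keratin Krt18 had 584 CPM in MOSE-PAX8 and 661 CPM in MOSE-NEO, and Msln 252 and 271 CPM, and neither was called. The 2 called higher were the cadherin Cdh2 (289.5 CPM in MOSE-PAX8 and 114 CPM in MOSE-NEO) and Nr2f2 (29.1 and 15.4 CPM).

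Marker lists of other cells gave mixed levels. The 8 leukocyte markers summed to 6.0 to 7.14 CPM in MOSE-PAX8 and 7.43 to 13.9 CPM in MOSE-NEO, with Tyrobp and Laptm5 at 0 counts. Of the 3 tested, Csf1r, which made up most of the sum, was called lower, with 428 counts in MOSE-PAX8 against 921 in MOSE-NEO (adjusted p = 0.00373 in edgeR), and Ptprc, a phosphatase of leukocytes, higher, with 196 counts in MOSE-PAX8 against 1 in MOSE-NEO (adjusted p = 0.000103 in edgeR). The 7 endothelial markers summed to 0.220 to 0.555 CPM in MOSE-PAX8 and 0.348 to 1.06 CPM in MOSE-NEO, with Cdh5 at 0. The 9 granulosa and theca markers summed to 555 to 629 CPM in MOSE-PAX8 and 604 to 724 CPM in MOSE-NEO, with Fshr, Cyp19a1 and Lhcgr at 0. Of the 4 tested, Foxl2, a transcription factor of granulosa cells, was called higher, with 182 counts in MOSE-PAX8 against 1 in MOSE-NEO (adjusted p = 0.000117 in edgeR), and Inha and Star were called lower. The 7 stromal fibroblast markers summed to 12416 to 13210 CPM in MOSE-PAX8 and 19917 to 23276 CPM in MOSE-NEO, and 1 of the 4 tested was called, the collagen gene Col3a1, lower at 9400 CPM in MOSE-PAX8 and 17615 CPM in MOSE-NEO. The libraries of the lines overlapped for the other tested ones, Dcn (log2 fold change -0.15), Col1a1 (-0.34) and Tcf21 (0.27), and the fibroblast receptor Pdgfra was at 0.0574 and 0.119 CPM. The part of these cell markers in the differences of the 9 genes was not tested. In RNA from a whole culture, fewer cells that make a transcript and less of it per cell cannot be told apart.

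Promoter sequences are shown for Aldh1a2, which was all but missing from MOSE-PAX8, and for Aldh1a1, the most abundant ALDH1A gene in both lines. Rara is added because its promoter windows held most of the receptor motifs found. Each is the 250 bases before a RefSeq transcription start on build GRCm38.p6, 5′ to 3′ on the plus strand, at chr9:71215539-71215788, chr19:20601718-20601967 and chr11:98939461-98939710. Capitals mark the hexamer that retinoic acid receptors recognise, as AGGTCA, the variant AGTTCA, the variant GGGTCA or the variant GGTTCA, or its reverse complement.
Aldh1a2: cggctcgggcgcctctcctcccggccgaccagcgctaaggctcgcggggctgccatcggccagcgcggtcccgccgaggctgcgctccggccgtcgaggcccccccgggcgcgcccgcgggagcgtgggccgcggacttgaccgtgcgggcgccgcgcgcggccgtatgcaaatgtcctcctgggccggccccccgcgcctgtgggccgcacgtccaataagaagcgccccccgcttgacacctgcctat
Aldh1a1: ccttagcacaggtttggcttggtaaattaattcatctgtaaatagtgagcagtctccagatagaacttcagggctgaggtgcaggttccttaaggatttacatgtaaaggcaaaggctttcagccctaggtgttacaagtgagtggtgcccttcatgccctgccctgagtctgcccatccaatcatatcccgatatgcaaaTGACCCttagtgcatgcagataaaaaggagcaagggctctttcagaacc
Rara: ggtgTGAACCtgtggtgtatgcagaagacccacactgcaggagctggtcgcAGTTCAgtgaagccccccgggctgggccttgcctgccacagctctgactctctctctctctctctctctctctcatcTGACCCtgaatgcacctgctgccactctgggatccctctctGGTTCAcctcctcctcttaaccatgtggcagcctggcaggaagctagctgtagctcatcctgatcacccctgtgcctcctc
The Aldh1a2 stretch lies outside any annotated gene, has a GC content of 77.6% and holds none of these hexamers. The Aldh1a1 stretch precedes an internal start within the gene, has a GC content of 46.4%, overlaps 7 exonic bases and holds 1 hexamer, 49 bases before the start, as GGGTCA on the minus strand. The Rara stretch is intronic, has a GC content of 58.8% and holds 4 hexamers.

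Promoter windows that also take in the 50 bases after the start were in the table for 7 of the 9 members, in 16 windows. The hexamer occurred in 4 of the 16, in 1 window of Aldh1a1, 1 of Stra6 and 2 of Rara. Of all 32851 windows of the same length in the table, 43.7% held it, so its presence in a window is common. None of the 16 windows held the hexamer as a direct repeat with 1, 2 or 5 bases between, arrangements used by pairs of RAR and RXR, which 0.222%, 0.268% and 0.0974% of all windows did. None held GTCACGC, letters of a paired-box recognition sequence, which occurred in 2.09% of all windows. Both strands were searched. No entry was found for Aldh1a3 and Rdh10.

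Stra6 is the membrane receptor that takes retinol from its carrier in the blood. The gene (ENSMUSG00000032327, chr9:58063788-58153996, plus strand, mm10) had 9.0, 13.4 and 11.6 CPM in MOSE-PAX8, against 11.9, 16.9 and 14.1 CPM in MOSE-NEO. The libraries of the lines overlapped, and the means were 11.3 ± 2.21 and 14.3 ± 2.51 CPM (SD, n = 3 each). Its log2 fold change was -0.33 ± 0.17 (SE). It was -0.60 with the lincRNA-rich library of each line left out. Ccdc33 lies on the opposite strand within the same stretch, with 3 counts in each line.

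Rdh10 makes retinal from retinol and sets the supply of substrate for the ALDH1A enzymes. The gene (ENSMUSG00000025921, chr1:16105774-16133734, plus strand) had 131, 148 and 213 CPM in MOSE-PAX8, against 35.1, 35.6 and 41.8 CPM in MOSE-NEO. Every MOSE-PAX8 library was more than 3-fold above every MOSE-NEO library. The means were 164 ± 43.5 CPM in MOSE-PAX8 and 37.5 ± 3.73 CPM in MOSE-NEO (SD, n = 3 each), a log2 fold change of 2.13 ± 0.18 (SE) that ranged from 1.89 to 2.27 over the alternatives. Among all tested genes its level per length stood at percentile 90.3 in MOSE-PAX8 and 57.1 in MOSE-NEO. The MOSE-PAX8 libraries spread 1.63-fold from lowest to highest, more than 98.0% of the 8710 genes with at least 10 CPM, whereas the MOSE-NEO libraries spread 1.19-fold. Replicate 3 of MOSE-PAX8 was the high library, and without it the log2 fold change was 1.89.

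Dhrs3 runs the opposite way, from retinal to retinol, and is known as a gene that retinoic acid induces. It (ENSMUSG00000066026, chr4:144892827-144928209, plus strand) had 46.4, 63.6 and 47.3 CPM in MOSE-PAX8, against 41.5, 64.9 and 23.7 CPM in MOSE-NEO. All of the MOSE-PAX8 values lay within the range of the MOSE-NEO values. The means were 52.5 ± 9.69 and 43.4 ± 20.7 CPM (SD, n = 3 each), and the log2 fold change of 0.28 ± 0.31 (SE) became -0.01 without MOSE-NEO replicate 3. Levels of different genes are compared as RPKM, the CPM divided by the length of the gene's exons in kilobases. In MOSE-PAX8 Rdh10 stood at 39.4 ± 10.5 RPKM and Dhrs3 at 17.9 ± 3.31 RPKM, with no overlap, and in MOSE-NEO Rdh10 stood at 9.02 ± 0.896 RPKM and Dhrs3 at 14.8 ± 7.07 RPKM, with overlap (SD, n = 3 each).

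Aldh1a2 is the retinal dehydrogenase that was all but missing from MOSE-PAX8. The gene (ENSMUSG00000013584, chr9:71215789-71296243, plus strand) had 0, 0 and 1 counts in MOSE-PAX8, against 1149, 1220 and 1097 counts in MOSE-NEO. In MOSE-NEO this was 36.5, 53.0 and 36.4 CPM, with a mean of 42.0 ± 9.57 CPM (SD, n = 3) and a level per length at percentile 76.5 of the tested genes. The level in MOSE-NEO was 4131-fold that in MOSE-PAX8, with a 95% interval of 741 to 163206 that covers counting error only and rests on the single count in MOSE-PAX8. A count of 0 allows up to 0.0820 CPM in MOSE-PAX8 replicate 1 and 0.0943 CPM in replicate 2 (3 counts of the library). It stayed lower under every alternative, each library left out in turn included, with fitted log2 fold changes from -13.32 to -10.90 whose size depends on how a count of 0 is treated.

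Aldh1a1 is the ALDH1A enzyme that both lines expressed most. The gene (ENSMUSG00000053279, chr19:20492715-20643465, plus strand) had 1845, 1436 and 1735 CPM in MOSE-PAX8, against 1974, 1972 and 2427 CPM in MOSE-NEO. The libraries did not overlap, and the highest of MOSE-PAX8 lay close below the lowest of MOSE-NEO. The means were 1672 ± 212 and 2124 ± 262 CPM (SD, n = 3 each), a log2 fold change of -0.35 ± 0.13 (SE). Its level per length stood at percentile 99.6 in MOSE-PAX8 and 99.7 in MOSE-NEO. On chromosome 19 the 50 nearest tested genes stood at a median of 0.30 on that scale, and relative to them Aldh1a1 was at -0.64. The noncoding gene C730002L08Rik overlaps it on the opposite strand, with 1995 counts in MOSE-PAX8 and 2137 in MOSE-NEO, and without a stated strand setting the reads of both cannot be told apart.

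Aldh1a3, the enzyme of this group known from the developing eye and nose, was barely detected. The gene (ENSMUSG00000015134, chr7:66390890-66427517, minus strand) had 0, 5 and 1 counts in MOSE-PAX8, against 2, 2 and 1 in MOSE-NEO. The ratio was 1.01, with a 95% counting interval of 0.256 to 4.17, so a difference of up to about 4-fold either way was not detectable at this depth.

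The ALDH1A group as a whole was compared by its sum and its makeup. The summed level of the 3 genes was 339 ± 42.9 RPKM in MOSE-PAX8 and 449 ± 51.2 RPKM in MOSE-NEO (SD, n = 3 each). Aldh1a1 made up at least 99.99% of it in every MOSE-PAX8 library and 94.46% to 96.83% in MOSE-NEO. Aldh1a2 made up 0% to 0.00387% in MOSE-PAX8 and 3.17% to 5.54% in MOSE-NEO. With the longest transcript as the length, the Aldh1a2 share in MOSE-NEO was 1.54% to 2.72%. In MOSE-NEO, too, Aldh1a2 was a small share of ALDH1A transcripts. Aldh1a7, the close paralog next to Aldh1a1, had 1.86 ± 0.285 CPM in MOSE-PAX8 and 1.52 ± 0.494 CPM in MOSE-NEO (SD, n = 3 each) and was not called, and how reads shared by these paralogs were counted is not known.

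**Figure D1:**
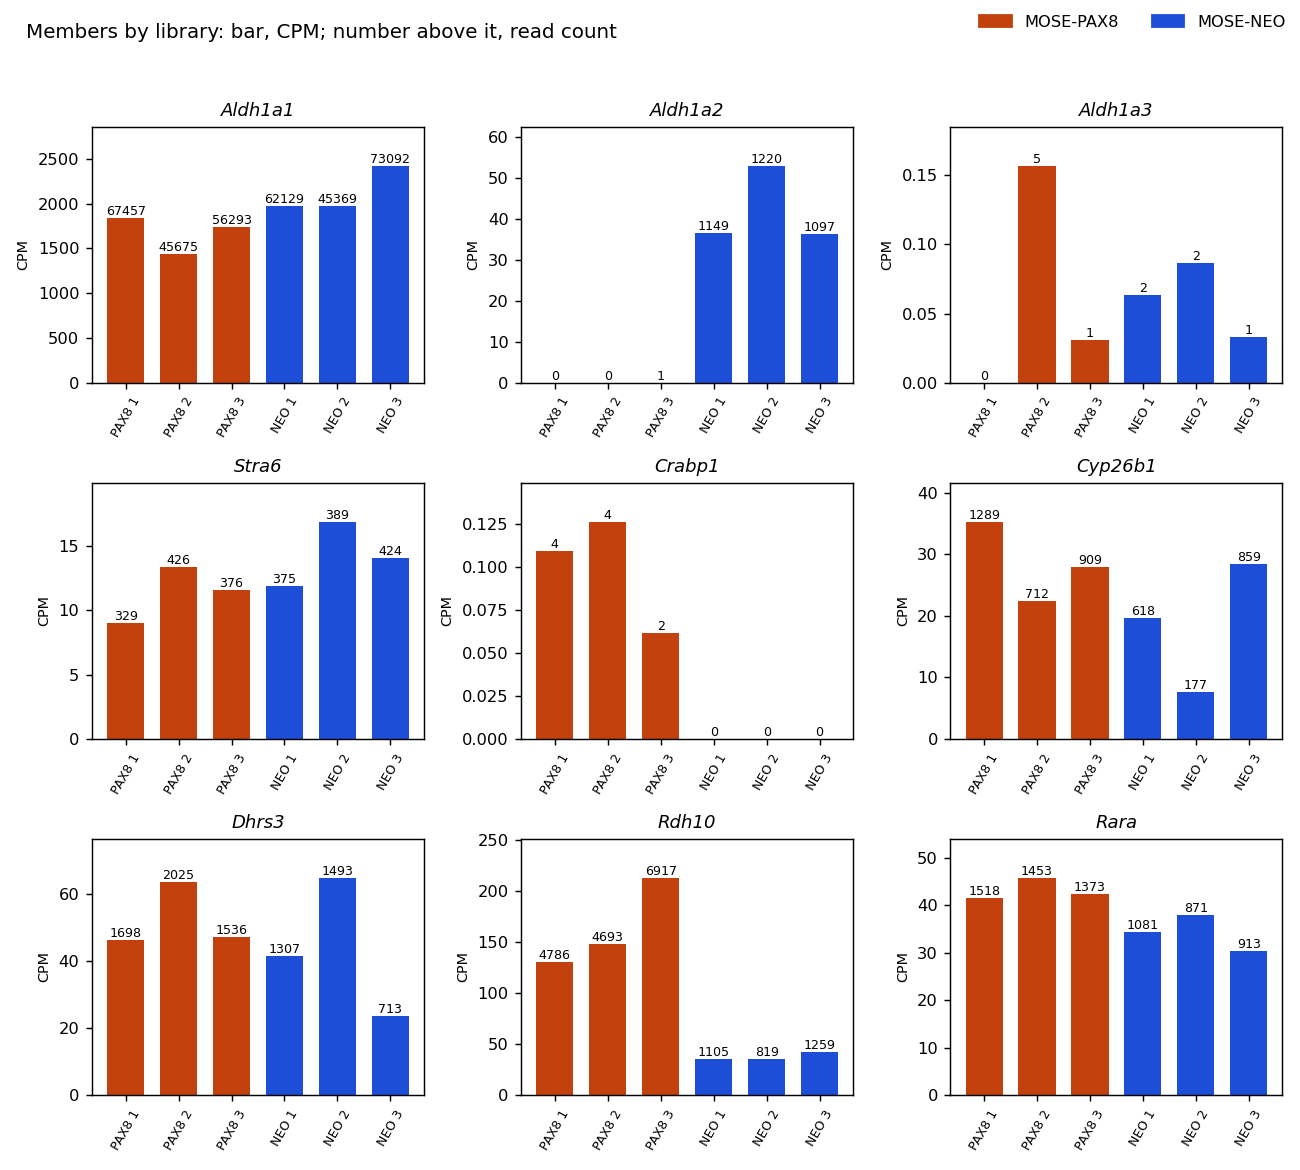
Level of each of the 9 genes in every library, as CPM on linear axes that start at 0, with the raw read count above each bar; orange bars are MOSE-PAX8 and blue bars MOSE-NEO, with 3 libraries each. Aldh1a2 has 0, 0 and 1 reads in MOSE-PAX8 against 1097 to 1220 in MOSE-NEO, and Rdh10 has 131 to 213 CPM in MOSE-PAX8 against 35.1 to 41.8 CPM in MOSE-NEO.

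Crabp1, a cytoplasmic carrier of retinoic acid, was at the limit of detection. The gene (ENSMUSG00000032291, chr9:54764748-54773110, plus strand) had 4, 4 and 2 counts in MOSE-PAX8, against 0, 0 and 0 in MOSE-NEO. The MOSE-PAX8 libraries averaged 0.0989 ± 0.0333 CPM (SD, n = 3). A count of 0 allows up to 0.0953, 0.130 and 0.0996 CPM in the single MOSE-NEO libraries, about as much as the MOSE-PAX8 mean. Summed over the libraries, 10 counts in MOSE-PAX8 stood against 0 in MOSE-NEO. The 95% interval of that ratio starts at 1.88-fold higher in MOSE-PAX8, has no upper end and covers counting error only. No single value of the fold is given.

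Cyp26b1 clears retinoic acid by oxidising it. The gene (ENSMUSG00000063415, chr6:84571414-84593908, minus strand) had 35.3, 22.4 and 28.0 CPM in MOSE-PAX8, against 19.6, 7.69 and 28.5 CPM in MOSE-NEO. The libraries overlapped, since MOSE-NEO replicate 3 exceeded 2 of the MOSE-PAX8 libraries. The means were 28.5 ± 6.45 and 18.6 ± 10.4 CPM (SD, n = 3 each), with a log2 fold change of 0.61 ± 0.38 (SE) that ranged from 0.23 without MOSE-NEO replicate 2 to 1.05 without MOSE-NEO replicate 3.

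Rara, the receptor, was slightly higher in MOSE-PAX8. The gene (ENSMUSG00000037992, chr11:98927818-98974942, plus strand) had 41.5, 45.7 and 42.3 CPM in MOSE-PAX8, against 34.3, 37.9 and 30.3 CPM in MOSE-NEO. The libraries did not overlap, and the means were 43.2 ± 2.20 and 34.2 ± 3.78 CPM (SD, n = 3 each), a 1.26-fold difference with a log2 fold change of 0.34 ± 0.10 (SE). It was no longer called without MOSE-NEO replicate 1, MOSE-NEO replicate 3, MOSE-PAX8 replicate 2 or MOSE-PAX8 replicate 3, although its log2 fold change stayed between 0.26 and 0.41 over all alternatives. The same loss was seen without both lincRNA-rich libraries and in a test against a fold of 1.5.

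Set side by side per length, the 9 genes ranked differently in the lines. In MOSE-PAX8 the order was Aldh1a1 at 339 RPKM, Rdh10 at 39.4, Dhrs3 at 17.9, Rara at 9.89, Cyp26b1 at 5.33, Stra6 at 1.94, Crabp1 at 0.123, Aldh1a3 at 0.0136 and Aldh1a2 at 0.00454 RPKM. The libraries of neighbours in this order overlapped for the last pair, Aldh1a3 and Aldh1a2, and for no other. In MOSE-NEO the order was Aldh1a1 at 430.3 RPKM, Aldh1a2 at 18.5, Dhrs3 at 14.8, Rdh10 at 9.02, Rara at 7.83, Cyp26b1 at 3.48, Stra6 at 2.45, Aldh1a3 at 0.0133 and Crabp1 at 0 RPKM. There the libraries overlapped between Aldh1a2 and Dhrs3, Dhrs3 and Rdh10, Rdh10 and Rara, and Cyp26b1 and Stra6, so those neighbours do not differ beyond their spread. By their means alone, Rdh10 stood at rank 2 in MOSE-PAX8 and rank 4 in MOSE-NEO, and Aldh1a2 at rank 9 and rank 2. With the longest transcript as the length, Aldh1a2 was at rank 3 in MOSE-NEO, at 18.5 RPKM behind Dhrs3 at 18.6 RPKM.

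**Figure D2:**
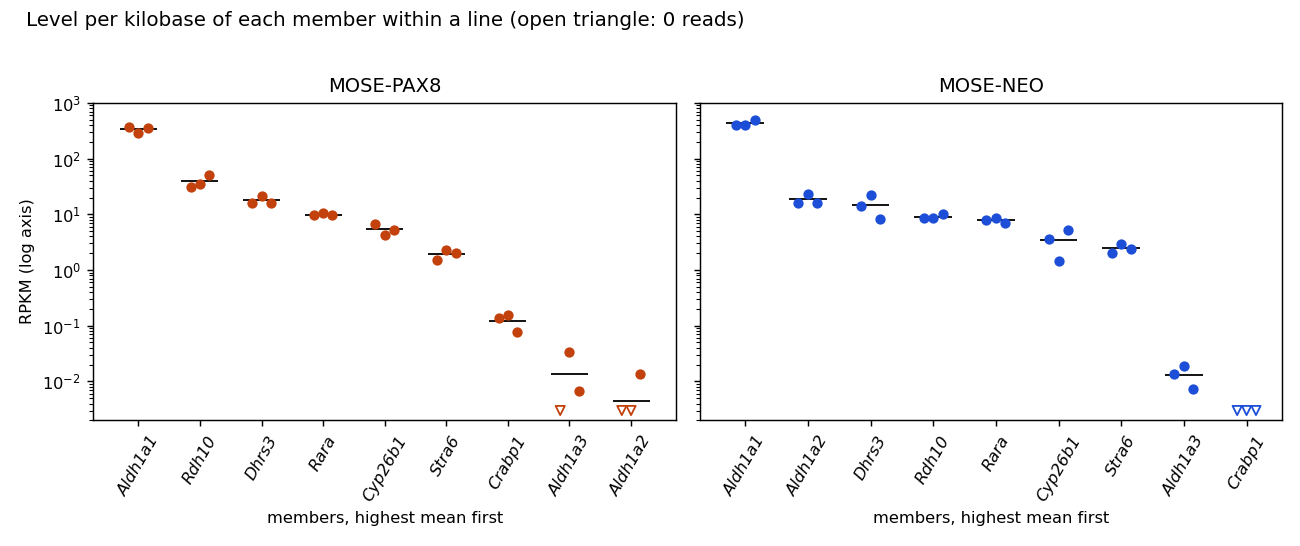
Level per kilobase of exon (RPKM, log axis) of the 9 genes in MOSE-PAX8 (left panel, orange) and MOSE-NEO (right panel, blue), each panel ordered by its own mean; points are the 3 libraries, bars their mean, and open triangles at the foot libraries with 0 reads. Aldh1a1 leads both panels at 339 and 430.3 RPKM. By its mean Aldh1a2 stands at rank 9 in MOSE-PAX8 with 0.00454 RPKM and at rank 2 in MOSE-NEO with 18.5 RPKM, where its libraries overlap those of Dhrs3.

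Replicates within MOSE-NEO disagreed about Dhrs3 and Cyp26b1 far more than about most genes. Dhrs3 spread 2.74-fold from its lowest to its highest MOSE-NEO library and Cyp26b1 3.71-fold, more than 99.7% and 99.9% of the 8710 genes with at least 10 CPM, whose median spread was 1.17-fold. In MOSE-PAX8 the spreads were 1.37-fold and 1.58-fold, beside a median of 1.14-fold. The MOSE-NEO libraries ran in opposite orders for these 2 genes: replicate 2 had the highest Dhrs3 (64.9 CPM) and the lowest Cyp26b1 (7.69 CPM), and replicate 3 the lowest Dhrs3 (23.7 CPM) and the highest Cyp26b1 (28.5 CPM). Tgm2, a transglutaminase gene long known to be induced by retinoic acid, had 53.7, 64.2 and 35.8 CPM in MOSE-PAX8 and 34.9, 97.3 and 19.6 CPM in MOSE-NEO, so its MOSE-NEO libraries ran in the order of Dhrs3. Other genes known as responders to retinoic acid ran both ways in MOSE-NEO. Cd38 kept that order (36.2, 45.8 and 27.0 CPM), whereas Bhlhe40 (88.0, 78.4 and 87.2 CPM) and Rarres2 (4.38, 5.43 and 6.21 CPM) did not. The cause of these orders was not tested. Aldh1a1, Aldh1a2, Rdh10 and Rara spread 1.23-fold, 1.46-fold, 1.19-fold and 1.25-fold over the same MOSE-NEO libraries.

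The genes whose pattern over the 6 libraries lay nearest to a member were sought among 9042 genes with at least 10 CPM in a line, by Euclidean distance in centred log2 CPM. The nearest to Aldh1a2 was Fam208a (distance 1.59), at 0.246 CPM in MOSE-PAX8 and 27.4 CPM in MOSE-NEO, followed by Sorcs1 (2.79) and Thy1 (3.04). For Rdh10 they were Ldlrad3 (0.26), at 18.8 and 4.11 CPM, Fgfr1 (0.30) and Nuak1 (0.31). For Dhrs3 they were Lifr (0.32), Ahr (0.45) and Socs3 (0.53), and for Cyp26b1 Maoa (0.55), Fbln5 (0.74) and Clic5 (0.80). For Stra6 they were Nme4 (0.23), Col1a1 (0.27) and Prpsap2 (0.28), for Aldh1a1 Cstb, Anxa3 and Sgce (0.10 each), and for Rara Ncapg and Miga2 (0.07 each) and Dsp (0.08). A distance depends on how much a gene varies over the libraries, so distances of different members are not compared.

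The genes around Aldh1a2 and Rdh10 did not share their differences. Among the 5 tested genes on each side of Aldh1a2, within 1.22 Mb, the median log2 fold change was -0.01, Cgnl1 (1.44) and Mindy2 (0.27) were called higher and Ccnb2 (-0.39) lower. The 10 around Rdh10 lay between -0.26 (Lactb2) and 0.25 (Eloc), with a median of -0.07. Around Aldh1a1 5 were called higher and 1 lower, with a median of 0.32, and around Rara 3 were called higher, Igfbp4 (1.49), Tns4 (1.40) and Ccr7 (2.37). Over all 9 members 18 of 90 neighbours were called higher and 5 lower, 25.6% in all, beside the 33.9% of all tested genes.

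**Figure D3:**
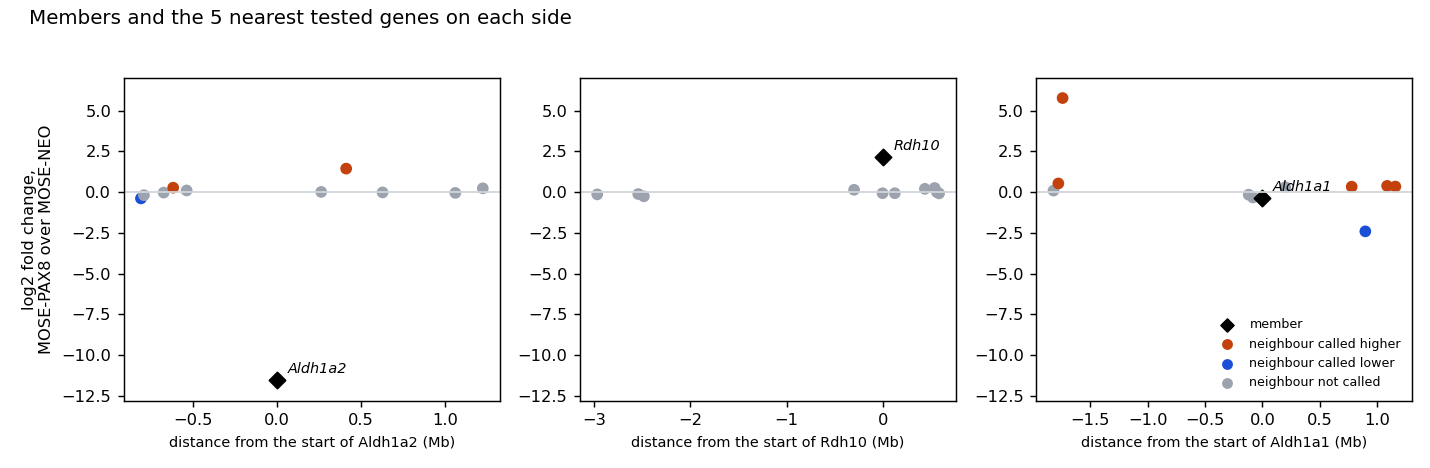
Log2 fold change (MOSE-PAX8 over MOSE-NEO) of Aldh1a2, Rdh10 and Aldh1a1 (black diamonds) and of the 5 nearest tested genes on each side of each (circles: orange called higher, blue called lower, grey not called), against the distance from the start of the member in Mb. Aldh1a2 lies at -11.55 among neighbours with a median of -0.01, and Rdh10 at 2.13 among neighbours with a median of -0.07.

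Of 119 further genes of retinoid biology in 6 lists, 75 could be tested. In MOSE-PAX8 20 of them were called higher and 15 lower, 46.7% beside 33.9% of all tested genes. The lists were written with earlier results of these data known. They are described by counts and medians alone, and all adjusted p in the next paragraphs are from edgeR over all tested genes.

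Enzymes that share the reactions of Rdh10 and Dhrs3 were called higher more often than lower. Of 24 retinol and retinal oxidoreductases 14 were tested, 7 were called higher and 2 lower, 64.3% beside 33.9% of all tested genes, with a list median of 0.22. Adh7, an alcohol dehydrogenase with high activity on retinol, had 13.2, 16.9 and 33.9 CPM in MOSE-PAX8, against 2.35, 2.83 and 3.78 CPM in MOSE-NEO (log2 fold change 2.83 ± 0.37 SE, adjusted p = 0.000597). Dhrs9, a retinol dehydrogenase, had 4.51, 2.58 and 3.24 CPM, against 1.27, 0.609 and 0.830 CPM in MOSE-NEO (1.91 ± 0.32 SE, adjusted p = 0.00234). In both, as in Rdh10, every MOSE-PAX8 library lay above every MOSE-NEO library, and both calls held in all 16 alternatives. The antisense gene 0610031O16Rik overlaps Adh7, with 16 counts in MOSE-PAX8 and 1 in MOSE-NEO.

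Adh1 and Rdh1 were called higher as well, at low levels of 84 counts in MOSE-PAX8 against 6 in MOSE-NEO and 51 against 5, and a filter of 1 CPM in 3 libraries removed both. Rdh1 has close copies beside it, so its counts are uncertain. For Adh1 the 50 nearest tested genes had a median log2 fold change of 0.48. Rdh13 (log2 fold change 0.83), Adh5 (0.42) and Rdh11 (0.37) were higher, and Dhrs4 (-0.44) lower, but the 50 nearest genes had medians of 0.71 for Rdh13, 0.49 for Adh5, 0.18 for Rdh11 and -0.44 for Dhrs4. With these local medians removed the 4 genes lost their calls (adjusted p = 0.393, 0.612, 0.212 and 0.999 for Rdh13, Adh5, Rdh11 and Dhrs4), leaving 4 oxidoreductases higher and 1 lower. Rdh13 was then at 0.13, Adh5 at -0.07, Rdh11 at 0.19 and Dhrs4 at 0.00. The Rdh11 call was also lost without MOSE-NEO replicate 1 (adjusted p = 0.0711), MOSE-NEO replicate 2 (0.0723), MOSE-PAX8 replicate 1 (0.0809) or MOSE-PAX8 replicate 3 (0.0803). Akr1b8, an aldo-keto reductase, was 1.39-fold lower with 111 ± 4.34 CPM in MOSE-PAX8 and 155 ± 14.7 CPM in MOSE-NEO (SD, n = 3 each; adjusted p = 0.00323).

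**Figure D4:**
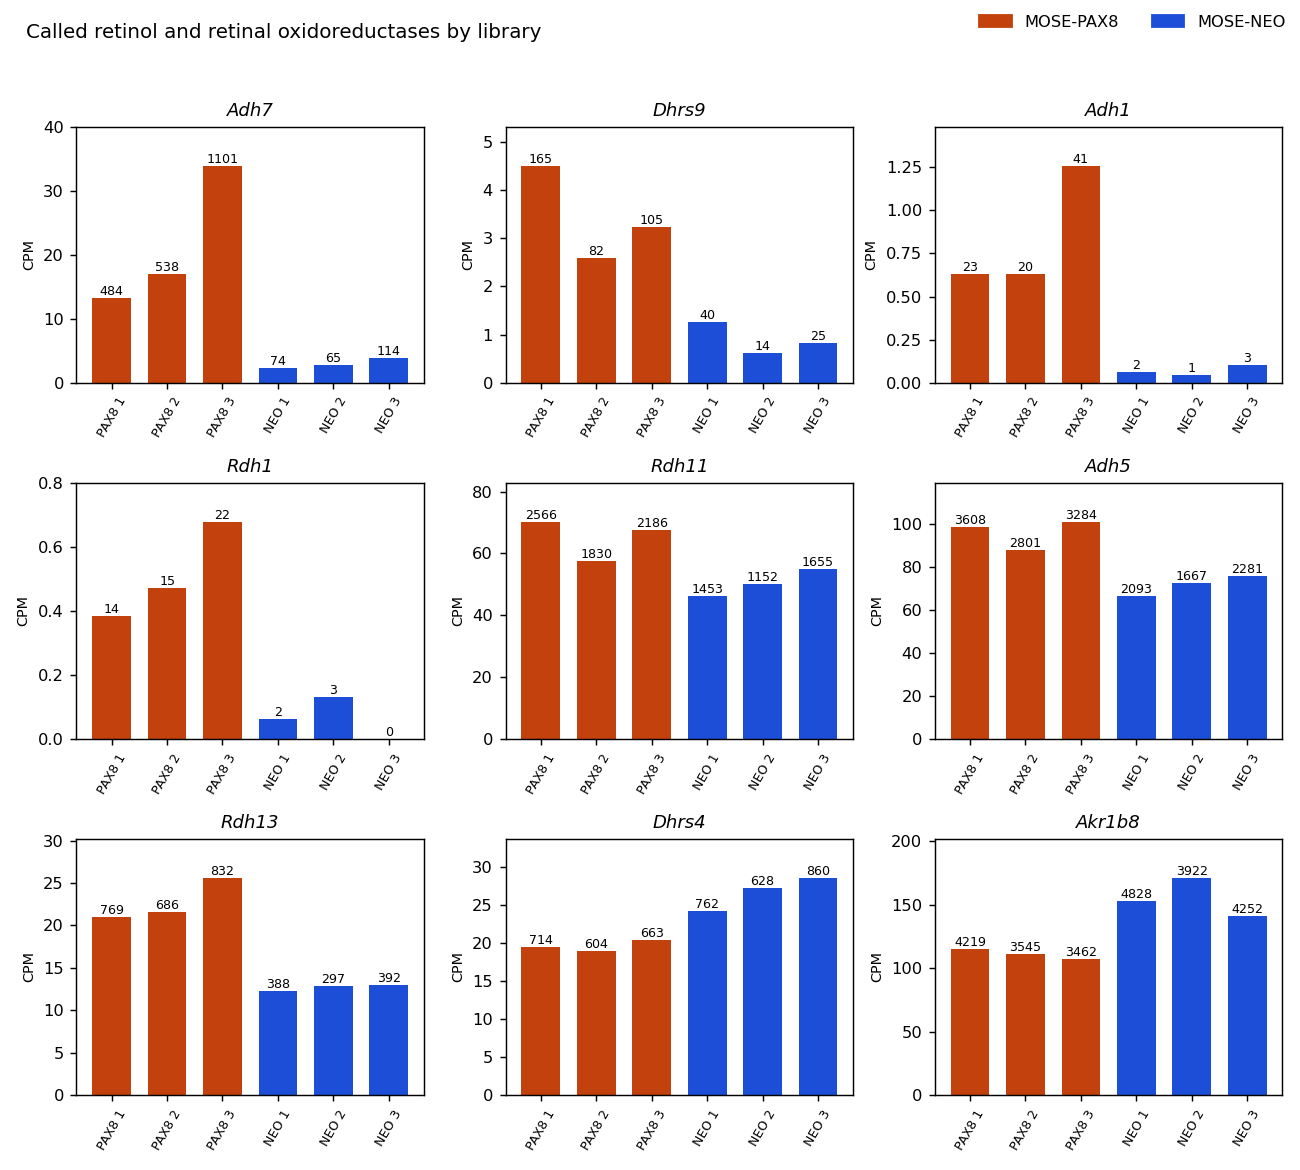
Level in every library of the 9 called genes of the retinol and retinal oxidoreductase list, which does not hold the members Rdh10 and Dhrs3. Bars are CPM on linear axes that start at 0, with the raw read count above each bar. Orange bars are MOSE-PAX8 and blue bars MOSE-NEO. In Adh7 and Dhrs9 the lowest MOSE-PAX8 library, at 13.2 and 2.58 CPM, stands above the highest MOSE-NEO library, at 3.78 and 1.27 CPM, and Dhrs4 and Akr1b8 are lower in every MOSE-PAX8 library.

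Other genes of uptake, binding and storage were mostly too low to test. Of 17 genes 6 were tested and 1 was called, higher, with a median of -0.10. The call was the fatty acid binding protein Fabp4, at 69 counts in MOSE-PAX8 against 8 in MOSE-NEO, a level that a filter of 1 CPM in 3 libraries removed. Crabp2, the carrier that hands retinoic acid to its receptors, had 21 counts in MOSE-PAX8 against 36 in MOSE-NEO, and the storage enzyme Lrat 0 against 1. Crabp1 and Crabp2, the carriers of retinoic acid, were thus at or below 0.411 CPM on average in both lines.

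For breakdown, Cyp26b1 was the one CYP26 gene at more than 1 RPKM in each line. Cyp26a1, the relative that retinoic acid induces most directly, had 0.0820, 0.534 and 0.277 CPM in MOSE-PAX8, against 0.667, 0.348 and 0.398 CPM in MOSE-NEO, and Cyp26c1 had 7 counts against 6. Of 5 degradation genes 2 were tested, with a median of -0.58, and Cyp2s1, a cytochrome P450 reported to oxidise retinoic acid, was called lower, 79.4 ± 3.84 CPM in MOSE-PAX8 and 109.5 ± 19.3 CPM in MOSE-NEO (SD, n = 3 each; log2 fold change -0.46, adjusted p = 0.0174). Without MOSE-PAX8 replicate 1 or 3 that call was lost (adjusted p = 0.0508 and 0.0683).

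Receptors and cofactors moved in both directions, by small amounts in most. Of 20 genes 17 were tested, 6 were called higher and 4 lower, 58.8% beside 33.9% of all tested genes, with a median of 0.07. Rarg, the other RAR receptor with reads besides Rara, was lower (38.3 ± 5.59 CPM in MOSE-PAX8, 49.7 ± 4.25 CPM in MOSE-NEO, SD, n = 3 each, adjusted p = 0.0381), and so was Rxra (41.7 ± 6.49 and 57.0 ± 2.90 CPM, adjusted p = 0.0147). Rxrb was higher, at 54.8 ± 3.19 CPM in MOSE-PAX8 and 44.9 ± 3.12 CPM in MOSE-NEO (SD, n = 3 each, log2 fold change 0.29, adjusted p = 0.0276), and Rarb and Rxrg had 0 counts in every library. Rarg lost its call without MOSE-NEO replicate 1 (adjusted p = 0.110), MOSE-NEO replicate 2 (0.0750), MOSE-PAX8 replicate 2 (0.0505) or MOSE-PAX8 replicate 3 (0.121), without both lincRNA-rich libraries (0.123) and with the local median removed (0.0627). Rxra lost its own without MOSE-PAX8 replicate 3 (0.0589), without both lincRNA-rich libraries (0.0922) and with the local median removed (0.117). Rxrb lost its own without MOSE-NEO replicate 3 (0.0866), without any one MOSE-PAX8 library (0.0508, 0.0811 and 0.0647 for replicates 1 to 3) and without both lincRNA-rich libraries (0.0839). Rara and Rxrb thus stood higher and Rarg and Rxra lower, each by less than 1.5-fold and each with a call that single libraries decide.

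Zfp423, a zinc finger cofactor of the RAR and RXR receptors, was 22.1-fold lower, with 0.273, 0.126 and 0.247 CPM in MOSE-PAX8 against 4.35, 4.83 and 5.48 CPM in MOSE-NEO (log2 fold change -4.46 ± 0.29 SE, adjusted p = 1.55e-05). The orphan receptors Nr2f2 (log2 fold change 0.92 ± 0.08 SE, adjusted p = 6.64e-05) and Nr2f1 (0.53 ± 0.09 SE, adjusted p = 0.00235), which bind the same hexamer, and the corepressor Nrip1 (0.80 ± 0.15 SE, adjusted p = 0.00345) were higher. Ncoa1, a coactivator, was higher at 0.44 and Hdac3, a corepressor deacetylase, lower at -0.23, and neither call held under every alternative. Ncoa1 lost its call without MOSE-NEO replicate 2 (adjusted p = 0.0573) or MOSE-PAX8 replicate 1 (0.0568), and Hdac3 without any one library other than MOSE-NEO replicate 1 (0.0754 to 0.152).

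Genes known as responders to retinoic acid showed no common direction. Of 42 genes 27 were tested, 6 were called higher and 4 lower, 37.0% beside 33.9% of all tested genes, with a median of 0.00. Bhlhe40, a circadian repressor once isolated as a gene stimulated by retinoic acid, rose to 167 ± 17.5 CPM in MOSE-PAX8, against 84.5 ± 5.31 CPM in MOSE-NEO (SD, n = 3 each; adjusted p = 0.000127), and Foxa1, Icam1 and Rai14 were higher at log2 fold changes of 1.64, 0.67 and 0.40. Thbd, the thrombomodulin gene, was lower at 148 ± 13.2 CPM against 279 ± 18.9 CPM (adjusted p = 0.000159), as were Hoxb3 (-0.85), the chemerin gene Rarres2 (-0.99) and, at 22 counts against 59, Zbtb16 (-1.65). Rarb, Hoxd4, Cdx1 and Stra8, among the best known responders, were at 0 counts in every library together with 4 others of the list.

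Some responders were highest in the lincRNA-rich library of each line, and the part of those libraries in the levels was not tested. Hoxb4 had 0.438, 2.73 and 0.555 CPM in MOSE-PAX8, against 4.45, 2.30 and 1.39 CPM in MOSE-NEO. Hoxb5 did the same, with 2.08, 5.91 and 2.62 CPM against 8.55, 4.74 and 3.42 CPM in MOSE-NEO. Without MOSE-PAX8 replicate 2, Hoxb4, Hoxb5 and Crabp2 were also called lower, 7 responders in all, and without both lincRNA-rich libraries Hoxb4 was called lower (log2 fold change -1.89, adjusted p = 0.0136) and Zbtb16 lost its call (adjusted p = 0.0596).

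Other aldehyde dehydrogenases were called about as often as genes at large. Of 17 genes outside the ALDH1A members 12 were tested, 1 was called higher and 4 lower, 41.7% beside 33.9% of all tested genes, with a median of -0.18, and with a library left out 2 to 4 were lower. Aldh3a2, which oxidises fatty aldehydes, had 102 ± 9.82 CPM in MOSE-PAX8 and 151 ± 8.43 CPM in MOSE-NEO (SD, n = 3 each; adjusted p = 0.00177), and Aldh7a1 133 ± 2.03 and 182 ± 22.7 CPM (adjusted p = 0.00714). Aldh2 (-0.35) and Aldh3b1 (-0.32) were lower by similar amounts to Aldh1a1, and both lost their calls without MOSE-NEO replicate 2 (adjusted p = 0.0616 and 0.127), MOSE-NEO replicate 3 (0.0502 and 0.0910) or MOSE-PAX8 replicate 2 (0.0545 and 0.110). Aldh16a1 was higher at 0.61 (adjusted p = 0.000796). All 12 tested lay between -0.57 (Aldh3a2) and 0.61 (Aldh16a1).

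**Figure D5:**
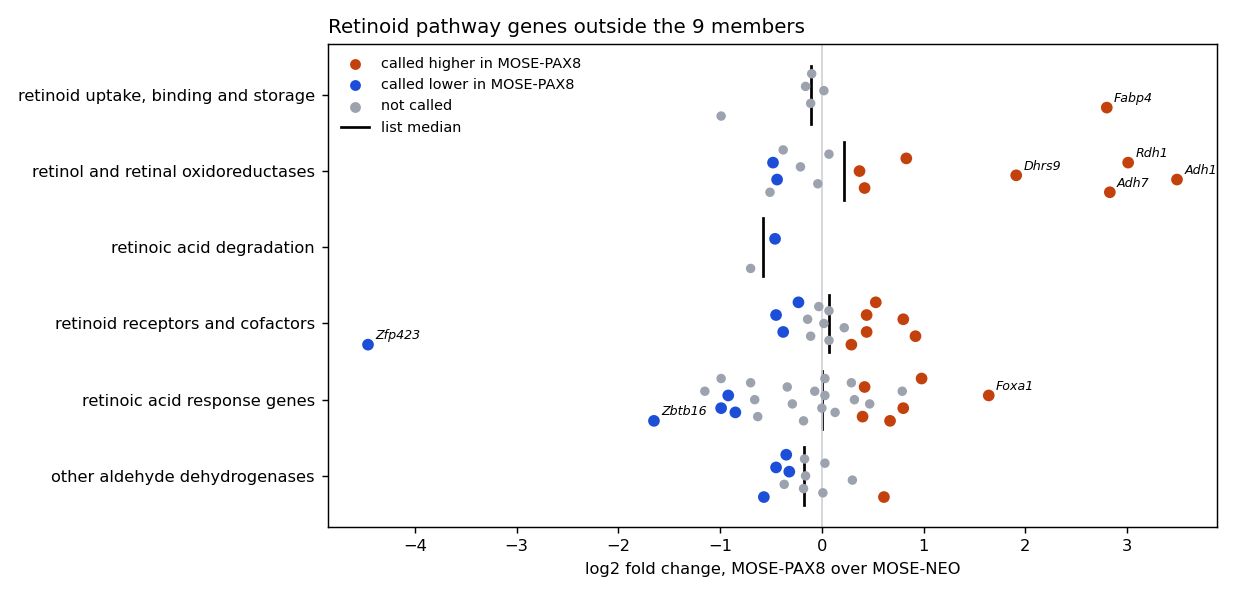
Log2 fold change (MOSE-PAX8 over MOSE-NEO) of each tested gene of the 6 retinoid lists, without the 9 members; orange points were called higher, blue points lower and grey points not called, black bars are list medians, and genes beyond 1.5 on either side are named. The medians run from -0.58 for the 2 degradation genes to 0.22 for the oxidoreductases, and Zfp423 at -4.46 and Adh1 at 3.49 lie farthest out.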

How the data were processed

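RNA sequencing libraries of MOSE-PAX8 and MOSE-NEO, 3 each, were grouped by their titles. The authors deposited unnormalised read counts for each gene, in a separate table for each library. Tools named in the submitters' processing notes are cutadapt 1.13, STAR, HTSeq 0.6.1p1 and DESeq2, with build mm10. The annotation, the strand setting and the handling of multiply aligned reads are not stated there. Symbols, coordinates and exon lengths came from GENCODE M21 on the same build, which matched 24991 of 25006 identifiers, and promoter sequences from RefSeq GRCm38.p6.

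Counts were fitted in edgeR 4.0.16 under R 4.3.3 by its quasi-likelihood test (TMM factors, filterByExpr, Benjamini-Hochberg over all 12313 tested genes, called below 0.05). CPM uses TMM-scaled totals, RPKM divides by exon union length, and SEs were worked back from the test statistic. The fit was tested on simulated counts. Counting intervals and the floor of 3 counts, 0.0820 to 0.130 CPM per library, cover counting error only. The labels do not state that replicates were separate cultures, and the p-values therefore reflect the spread among these libraries alone, which may be technical. Replicates of a line differed by 13.5 to 42.9 times the sampling variance, so none was a duplicate deposit.

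Members and lists were chosen with earlier results of these data known. Named list genes were up to 4 called genes per list and direction with the smallest adjusted p and at least 1 CPM in a line. Fabp4, Adh1, Rdh1, Rdh11, Rxrb, Zbtb16, Hoxb4, Hoxb5, Tgm2 and genes not called are named as examples. Some genes of the lists are not reported here. Nearest patterns were taken for 3 genes per member, after adding 0.5 CPM. Alternatives were RLE and upper-quartile factors, DESeq2 1.42.0, limma 3.58.1 (voom), no low-count filter, a minimum of 1 CPM in 3 libraries, a block for the replicate number, omission of each library in turn or of both lincRNA-rich libraries together, removal of the median log2 fold change of the 50 nearest genes, and a test against a fold of 1.5.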

Additional observations from a re-analysis of the deposited data

How the results depend on the processing

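The differences of Rdh10 and Aldh1a2 kept their direction and their call in all 16 alternatives. Both genes were chosen from this comparison and the alternatives refit the same libraries, so this describes the processing and is no support for the differences. Of 112 values of the 7 tested members, 6 lost a call (all of Rara), 5 gained one and 1 turned round: Dhrs3 was -0.01 without MOSE-NEO replicate 3 and up to 0.68 with another library left out. Of 432 values of 27 named list genes, 377 kept direction and call and 55 lost their call, 2 of which turned round: Adh5 and Dhrs4 were -0.07 and 0.00 with the local chromosome median removed. With the replicate number as a block 5 members were called, Aldh1a1 and Stra6 in addition, and with a library left out 2 to 3. Aldh1a1 was also called lower with DESeq2 and with the local median removed, and Stra6 without the lincRNA-rich libraries, and Crabp1 was called higher without a low-count filter. The labels do not say that equal numbers pair samples. Deviations of same-numbered libraries correlated at -0.465, 0.054 and 0.402 for numbers 1 to 3, and MOSE-PAX8 replicate 2 and MOSE-NEO replicate 1 at 0.627. Deviations within a line of 3 libraries are not independent, so these values cannot show whether the numbers mark a shared culture or day.

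A test against a fold of 1.5 called 700 genes higher and 370 lower. In the lists it left 4 oxidoreductases higher and 0 lower, 0 degradation genes lower, 1 receptor or cofactor higher and 1 lower, 2 responders higher and 1 lower, and 0 other aldehyde dehydrogenases either way. The local median left 4 oxidoreductases higher and 1 lower and 2 receptors or cofactors lower, as did leaving out both lincRNA-rich libraries for the receptors. A filter of 1 CPM left 0 uptake genes higher. With a library left out, genes called higher numbered 1545 to 2065 and lower 1314 to 1843 (lowest without MOSE-PAX8 replicate 3), uptake genes lower 0 to 1, degradation genes lower 0 to 1, receptors or cofactors higher 3 to 5 and lower 1 to 3, responders lower 4 to 7, and other aldehyde dehydrogenases lower 2 to 4. With 10 neighbours a side, 8.89% of them were called lower. With the length of the longest transcript, 5 of the 9 genes kept their rank in MOSE-NEO and 9 in MOSE-PAX8, and Aldh1a2 averaged 2.05% of the summed ALDH1A level in MOSE-NEO, against 4.19% with the union of exons, an alternative chosen after seeing the data. Where no cause is shown by the alternative itself, the cause was not tested. Depth limits Aldh1a2 in MOSE-PAX8, Aldh1a3 and Crabp1, which rest on 10 counts or fewer a line.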
